A study of Arabidopsis thaliana with 24 samples.

Results

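The response of rpt2-3a rosettes to sulfur deficiency was measured as the difference between 3 arrays of sulfur-deficient rosettes and 3 arrays of normally supplied rosettes, 6 of the 24 arrays of the study. rpt2-3a is a mutant of Arabidopsis thaliana named after RPT2, a subunit of the regulatory particle of the 26S proteasome, and Col-0 is the reference accession. All plants were raised in hydroponic culture in days of 8 h light (16 h dark) with complete nutrients for 5 weeks. The normal groups then stayed on complete nutrients, and the deficient groups spent 5 days on nutrients deficient in sulfur. Beside the 2 groups of rpt2-3a rosettes, the same 2 supplies were used for Col-0 rosettes and for rpt2-3a roots, with 3 arrays in each group, and Col-0 roots complete the 24. The labels give the mutant as 1 line, rpt2-3a, and the material as whole rosettes, and the 3 samples of a group are stated to be biological replicates. The members of the response are all 28583 features of the array, of which 16746 carry exactly 1 gene, and genes were named only from these.

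The 26S proteasome degrades proteins that have been tagged with ubiquitin, and its regulatory particle unfolds them and feeds them into the catalytic core. RPT2 is an ATPase of that regulatory particle, and Arabidopsis carries paired copies, RPT2A and RPT2B. Plants take up sulfate, activate it with ATP sulfurylase and reduce it to sulfide for cysteine, glutathione and methionine, and Brassicaceae store part of their sulfur in glucosinolates, a group of defence compounds. In sulfur-starved Arabidopsis, genes of sulfate uptake and of glucosinolate breakdown are known to be induced and genes of glucosinolate synthesis to be repressed. Immune receptors with a TIR domain recognise pathogen molecules inside the cell, and wounding or elicitors quickly induce a set of transcription factors, ubiquitin ligases and calcium sensors.

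Values are log2 expression values as deposited, and a change is the mean of deficient minus the mean of normal arrays. The 6 arrays had medians of 4.06 to 4.1. At normal supply, replicates 1 and 2 of the mutant had a slightly narrower spread (SD over all features 2.13 and 2.12) than replicate 3 (2.20), and the other 9 rosette arrays lay between 2.16 and 2.20. Replicate 2 at normal supply also had the lowest mean correlation with the other rosette arrays (0.986). Neither RPT2A nor RPT2B is among the features with exactly 1 gene, so the genotype labels were not checked through the gene that carries the mutation. The rosette markers RCA, PSAE1, LHCB4.1 and ATPC1 averaged 9.98 to 10.11 over the 6 arrays. The 4 measured root markers averaged 3.45 to 3.57 at normal and 3.65 to 3.96 at deficient supply, and 8.58 to 8.92 in rpt2-3a roots. The 2 groups of rosettes did not overlap in this average, and the part of root-expressed RNA in the changes below was not tested. Of these markers BGLU23 stood at 0.48 (limma adjusted p = 0.33), BGLU21 at 0.43, EXPA7 at 0.22 and EXPA18 at 0.10, and none passed. Of the other cell types, only FAMA of guard cells (-0.17) and SWEET11 of vascular tissue (0.37, adjusted p = 0.12) were measured, SWEET11 between 8.42 and 8.71 at normal and between 8.86 and 8.96 at deficient supply.

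In sulfur-deficient rpt2-3a rosettes, 5 of 11 measured rapid-response genes and 13 of 101 measured TIR-domain genes passed as lower. Of all features 0.686% did, and no gene of either list passed as higher. With 1 array left out, the 5 ran from 1 to 6 and the 13 from 6 to 14. The rapid-response list was written with earlier results of these data known, and the TIR-domain list after the values had been seen. The transcription factor gene ERF022 fell by 2.45 on the log2 scale, to values near the bottom of the array's range, the EF-hand gene AT4G27280 fell 4.19-fold and the TIR-domain gene AT1G72920 fell 3.71-fold. The hydrolase gene AT4G17470 rose 4.16-fold, and the transcription factor gene NGA3 rose by 1.67 on the log2 scale from values near the bottom of the range. Differences that begin or end there may understate the change. None of the 9 measured sulfur marker, sulfate assimilation and glucosinolate synthesis genes passed. Only 2 of 12, 3 of 32 and 4 of 30 genes of these lists were measured, so the pathway as a whole was not read. In all, 444 of 28583 features (1.55%) passed at a Benjamini-Hochberg adjusted p under 0.05 in limma's moderated test, 248 higher (0.868%) and 196 lower (0.686%). Of these, 114 changed at least 2-fold, 46 of them higher and 68 lower. The 2 groups of arrays did not overlap in any of the 444, as in 18.3% of all features. Since this held for every called feature, a lack of overlap in a called gene below adds nothing to its call. Of the 444, 42 share all 24 values with another feature, and the 444 hold 411 distinct sets of values. The count fell to 272 without replicate 1, 207 without replicate 2 of normal supply, and to 226, 179 and 197 without replicates 1, 2 and 3 of deficient supply. It was 611 without replicate 3 of normal supply. A total of 131 features passed in all 6 of these fits, 72 lower and 59 higher.

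**Figure D1:**
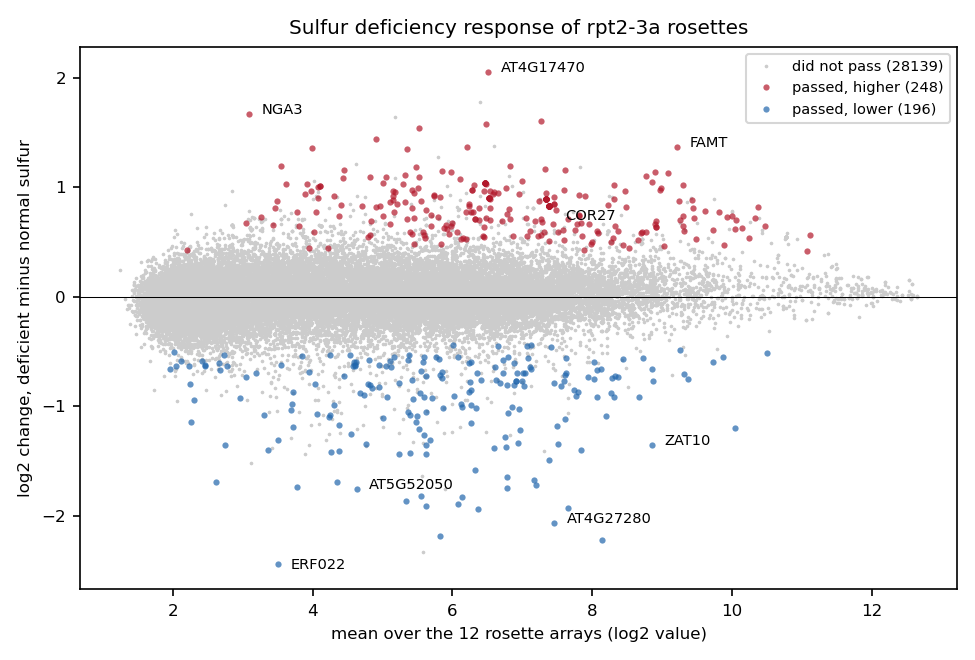
Log2 change of each feature in rpt2-3a rosettes (deficient minus normal sulfur, n = 3 arrays each) against its mean log2 value over the 12 rosette arrays, with features that passed coloured by direction. The 196 lower features lie at levels from 1.95 to 10.50 and the 248 higher ones from 2.19 to 11.12, with few at low levels. Of 7729 features between 2 and 3, 1 passed as higher and 17 as lower. The farthest of the labelled genes are ERF022 below and AT4G17470 above.

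Features with exactly 1 gene made up 182 of the 444, 81 higher (0.484% of 16746) and 101 lower (0.603%). They stood for 177 loci. The other 262 features had no single gene and are counted without names. Features that fell had a median rosette level of 5.85 and a median change of -0.80, and those that rose a median level of 6.56 and a median change of 0.82, against a median level of 4.09 and a median change of 0.00 over all features. The samples are whole rosettes, in which fewer cells of a type cannot be told apart from less RNA per cell.

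ERF022, an AP2/ERF transcription factor, changed most. It read 4.01, 5.18 and 5.14 at normal supply and 2.14, 2.32 and 2.53 at deficient supply (log2 change -2.45 ± 0.37 SE, n = 3, adjusted p = 0.0065). The deficient arrays all lay below the lowest normal array, at a level near the bottom of the array's range. AT4G27280 encodes a calcium-binding EF-hand protein and read 8.38, 8.44 and 8.20 at normal and 5.52, 6.64 and 6.66 at deficient supply (-2.07 ± 0.42, adjusted p = 0.026). Its groups are far apart, but replicate 1 of deficient supply stood well below the other deficient arrays, and the gene kept its call only in the fit without replicate 3 of normal supply (adjusted p 0.055 to 0.10 in the other 5). AT4G29780 read 8.62, 8.68 and 7.79 at normal and 5.98, 6.60 and 6.73 at deficient supply (-1.93 ± 0.37, adjusted p = 0.017). It lost its call without replicate 1 or 2 of either supply (0.061 to 0.089).

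AT5G52050, a MATE-type efflux transporter also called DTX50, read 5.62, 5.34 and 5.27 at normal and 3.88, 3.71 and 3.38 at deficient supply (-1.75 ± 0.20, adjusted p = 0.0022). Both groups were tight, and the call held in all 6 fits without 1 array. AT1G07135, a glycine-rich protein gene, read 8.29, 8.14 and 7.65 against 5.88, 6.52 and 6.51 (-1.72 ± 0.27, adjusted p = 0.0073). AT3G02840, an ARM-repeat protein gene, read 5.18, 5.35 and 4.85 against 3.56, 3.58 and 3.17 (-1.69 ± 0.26, adjusted p = 0.0071). Both fell in every deficient array and kept their call whichever array was left out.

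The chitinase family gene AT2G43590 was the least stable of the strongly lowered genes. It read 7.56, 6.14 and 6.57 at normal and 5.17, 4.97 and 4.52 at deficient supply (-1.87 ± 0.43, adjusted p = 0.049). No fit without 1 array called it (adjusted p 0.057 to 0.18). AT1G56660 (-1.41 ± 0.27) lost its call without replicate 1 or 2 of either supply (0.056 to 0.081). AT2G39650 (-1.43 ± 0.20, adjusted p = 0.0042) and ZAT7, a C2H2 zinc finger factor (-1.35 ± 0.19, adjusted p = 0.0043), kept theirs in every such fit. ZAT7 read 3.66, 3.32 and 3.68 at normal and 2.18, 2.25 and 2.17 at deficient supply. Of the 15 genes that fell most, 8 passed in all 6 fits without 1 array and 7 did not.

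**Figure D2:**
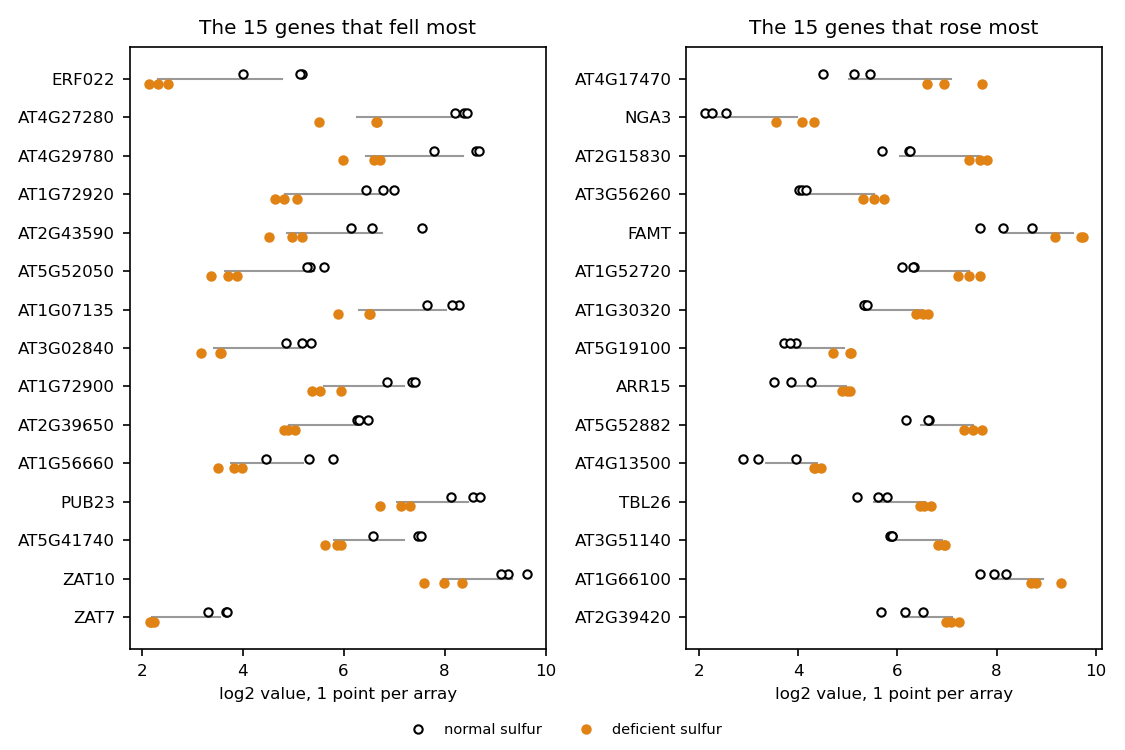
Log2 values of the 15 genes that fell most (left) and the 15 that rose most (right) in sulfur-deficient rpt2-3a rosettes, with 1 point per array (open for normal, filled for deficient sulfur) and a line between the group means. Only called genes whose normal and deficient arrays do not overlap were eligible, so the separation of the points in each gene follows from the choice of genes. The gap between means is widest for ERF022.

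Of 54 listed genes that answer wounding and elicitors quickly, 11 were measured. This list was written with earlier results of these data known. All 11 changes were below 0, with a median change of -0.80 against 0.00 over all features, and 5 passed as lower (0.686% of all features did). None passed as higher. Besides ERF022 these were PUB23, WRKY22, ZAT10 and ORA47. PUB23, a U-box ubiquitin ligase that dampens immune signalling, read 8.56, 8.70 and 8.12 at normal and 6.72, 7.32 and 7.13 at deficient supply (-1.40 ± 0.27, adjusted p = 0.018). Its relatives PUB22 (-0.33, adjusted p = 0.52) and PUB24 (-0.19, adjusted p = 0.69) did not pass. ZAT10, a zinc finger repressor of stress genes, went from 9.63, 9.26 and 9.11 to 7.60, 8.35 and 7.98 (-1.36 ± 0.26, adjusted p = 0.020). PUB23 and ZAT10 both lost their call without replicate 1 or 2 of normal or replicate 1 or 3 of deficient supply (0.067 to 0.090 and 0.068 to 0.094).

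WRKY22, a factor of immune kinase signalling, read 5.15, 5.34 and 5.17 against 4.11, 4.34 and 4.82 (-0.80 ± 0.15, adjusted p = 0.018). ORA47, an AP2/ERF activator of jasmonate synthesis genes, read 5.80, 5.46 and 4.75 against 3.89, 4.30 and 4.02 (-1.27 ± 0.25, adjusted p = 0.025). WRKY22 lost its call without replicate 1 or 2 of either supply (up to 0.092), and ORA47 kept it only without replicate 3 of normal supply (0.058 to 0.10 otherwise). The calmodulin-like genes CML38 (-1.10, adjusted p = 0.14) and CML37 (-0.50, adjusted p = 0.21) did not pass. WRKY6 (-0.35) and EXO (-0.15) lay nearer 0. The count of 5 is fragile: it was 1 without replicate 1 or replicate 2 of normal supply or replicate 1 of deficient supply, 3 without replicate 2 and 2 without replicate 3 of deficient supply, and 6 without replicate 3 of normal supply.

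TIR-domain genes encode intracellular immune receptors and smaller related proteins whose TIR domain acts as an enzyme that makes nucleotide signals. This list of 127 loci was written after the values had been seen, and 101 were measured. Of these, 13 (12.9%) passed as lower, against 0.686% of all features, and none passed as higher. Among the 101, 76 lay below 0 and 25 above, with a median change of -0.13. AT5G41740 and AT5G41750 are neighbours in the RefSeq gene order, and related copies in this family may share array signal, which was not tested, so values of single copies are uncertain.

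AT1G72920 and AT1G72900 encode short TIR proteins from a chromosome 1 cluster. AT1G72920 read 6.99, 6.78 and 6.44 at normal and 4.65, 4.82 and 5.07 at deficient supply (-1.89 ± 0.35, adjusted p = 0.015). AT1G72900 read 7.35, 7.41 and 6.85 against 5.53, 5.95 and 5.37 (-1.59 ± 0.24, adjusted p = 0.0065). In both, every deficient array lay below every normal array, and AT1G72920 lost its call without replicate 1 or 2 of either supply (0.065 to 0.069). AT1G72910 of the same cluster stood at -1.69 but missed the threshold (adjusted p = 0.059), with 1 deficient array at 3.32 and the others at 4.69 and 4.65. AT1G72940 stood at -0.94 (adjusted p = 0.12).

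The adjacent receptor genes AT5G41740 and AT5G41750 fell together. AT5G41740 read 7.47, 7.53 and 6.59 at normal and 5.63, 5.87 and 5.95 at deficient supply (-1.38 ± 0.22, adjusted p = 0.0089). AT5G41750 read 6.70, 6.45 and 5.93 against 5.17, 5.06 and 4.93 (-1.31 ± 0.19, adjusted p = 0.0048). AT5G22690 had the smallest adjusted p of the list (0.0026) and went from 5.55, 5.35 and 5.44 to 4.69, 4.64 and 4.6 (-0.80 ± 0.10). Its replicates lay close together within each supply. AT1G66090, a TIR protein without a leucine-rich repeat part, read 4.47, 4.24 and 4.35 against 3.25, 3.32 and 2.91 (-1.19 ± 0.17, adjusted p = 0.0045).

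DM10, a receptor gene known from hybrid incompatibility between accessions, read 6.94, 6.77 and 6.72 against 5.98, 5.97 and 5.45 (-1.01 ± 0.17, adjusted p = 0.010). RAC1, which confers resistance to white rust, fell by 0.64 ± 0.12 on the log2 scale (adjusted p = 0.016). AT1G63860 (-0.81), AT5G40910 (-0.77), AT3G44630 (-0.73), AT4G19520 (-0.70) and AT3G44670 (-0.61) make up the rest. AT5G22690, AT1G66090, AT5G41750, AT1G72900, AT5G41740 and DM10 passed in all 6 fits without 1 array. The other 7 did not, with adjusted p-values of 0.053 to 0.16 where they failed. The number of the list that passed as lower was 6 without replicate 1 of either supply, 7 without replicate 2 of either supply, 8 without replicate 3 of deficient and 14 without replicate 3 of normal supply.

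**Figure D3:**
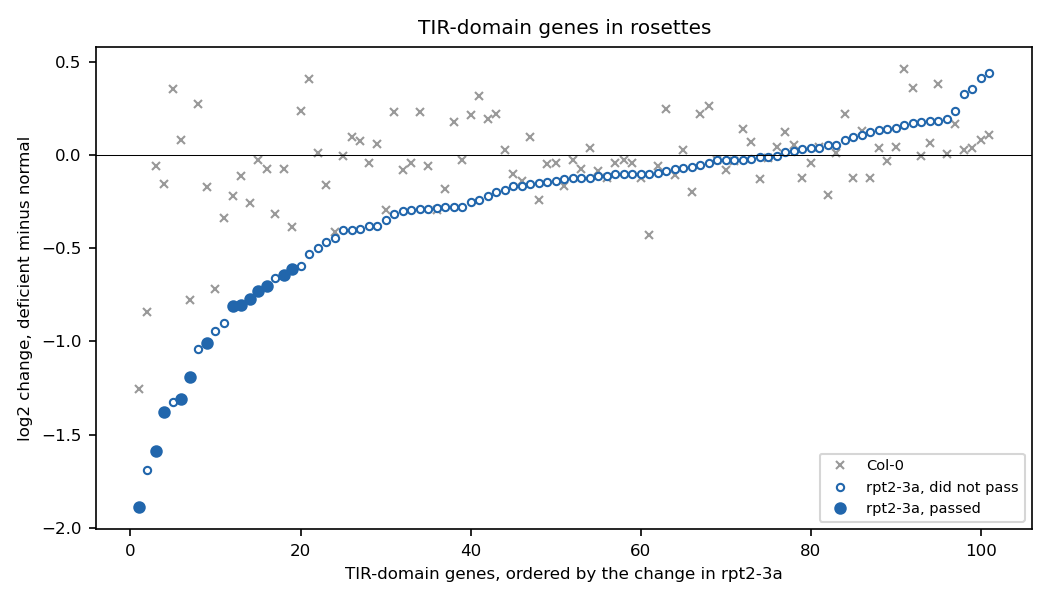
Log2 change (deficient minus normal sulfur, n = 3 arrays each) of the 101 measured TIR-domain genes, ordered by their change in rpt2-3a rosettes, with the change of the same gene in Col-0 rosettes as a cross. The 13 that passed in rpt2-3a are filled and lie between -1.89 and -0.61. Over all 101 genes the median is -0.13 in rpt2-3a and -0.03 in Col-0, where the crosses run from -1.26 to 0.46. No gene of the list passed for the difference of the responses in the main fit.

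Helper receptors relay the signal of TIR receptors. Of 3 measured members of a list of 6, also written after the values had been seen, NRG1.1 and NRG1.2 fell (0.686% of all features did). NRG1.1 read 6.07, 6.17 and 5.94 against 5.40, 5.62 and 5.52 (-0.55 ± 0.11, adjusted p = 0.030). NRG1.2, its neighbour on the chromosome, read 5.38, 5.54 and 5.47 against 4.79, 4.98 and 4.70 (-0.64 ± 0.14, adjusted p = 0.033). The truncated copy NRG1.3 stood at -0.15 near the bottom of the range. NRG1.1 was called only in the fit without replicate 3 of normal supply (0.067 to 0.13 in the others), and NRG1.2 in none (0.061 to 0.14). SAG101, which works with the NRG1 helpers and was the single measured gene of the salicylate list of 17, stood at -0.15 (adjusted p = 0.70).

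Other immune and signalling genes that fell were picked out after their values had been seen. The receptor-like kinase genes AT1G11050 (-1.05 ± 0.15, adjusted p = 0.0045) and AT1G70740 (-0.80 ± 0.11, adjusted p = 0.0039) fell in every deficient array. AT1G24140, a matrix metalloproteinase gene, fell with no overlap between supplies (-0.98 ± 0.16, adjusted p = 0.0085). DLAH, a lipase gene, read 4.08, 4.43 and 4.02 against 3.19, 3.30 and 2.80 (-1.08 ± 0.18, adjusted p = 0.0090). The GRAS-family gene AT3G46600 read 8.48, 8.36 and 8.62 against 7.66, 7.56 and 7.49 (-0.92 ± 0.15, adjusted p = 0.0088). All 5 kept their call in the fits without 1 array. BZIP60, a transcription factor of the unfolded protein response, stood at -0.76 ± 0.17 (adjusted p = 0.038), and no fit without 1 array called it (0.053 to 0.16).

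None of the measured genes of the sulfur lists passed. Most listed genes had no feature with exactly 1 gene, so the pathway as a whole was not read. Of 12 sulfur deficiency markers 2 were measured. SDI2, a marker known to be induced by sulfur starvation, read 5.02, 5.06 and 4.77 at normal and 4.23, 4.35 and 4.12 at deficient supply (-0.72 ± 0.19, adjusted p = 0.095). The groups did not overlap and the deficient arrays were the lower ones. In Col-0 rosettes the change of SDI2 was also below 0, at -0.49, and did not pass. BGLU28, a beta-glucosidase thought to break down glucosinolates under sulfur starvation, read 2.86, 2.94 and 2.00 against 2.84, 2.67 and 2.67 (0.13 ± 0.28, adjusted p = 0.90), near the bottom of the range throughout. In Col-0 rosettes BGLU28 went from 2.66 ± 0.40 to 4.1 ± 0.52 (mean ± SD, n = 3; 1.43 ± 0.28 SE, adjusted p = 0.078). The difference of the responses was -1.31 ± 0.40 (adjusted p = 0.33), so the genotypes were not shown to differ in it.

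Of 32 genes of sulfate uptake and assimilation 3 were measured. The sulfite reductase gene SIR read 8.58, 8.79 and 8.74 against 8.76, 8.60 and 8.55 (-0.07 ± 0.10, adjusted p = 0.84). The ATP sulfurylase genes APS3 (0.02 ± 0.13, adjusted p = 0.97) and APS4 (-0.17 ± 0.14, adjusted p = 0.67) also overlapped between supplies. Of 30 glucosinolate synthesis genes 4 were measured. GSTU20, a glutathione transferase co-regulated with aliphatic glucosinolate synthesis, read 7.94, 7.68 and 7.83 against 7.64, 7.53 and 7.58 (-0.23 ± 0.12, adjusted p = 0.46). In Col-0 it fell by 0.97 ± 0.12 on the log2 scale (adjusted p = 0.011; 0.0525% of features passed as lower there), and the difference of the responses was 0.73 ± 0.17 (adjusted p = 0.23). The glucosyltransferase genes UGT74C1 (-0.16 ± 0.11) and UGT74B1 (0.14 ± 0.10) and GSL-OH, which modifies aliphatic side chains (-0.02 ± 0.11), had adjusted p-values of 0.60, 0.61 and 0.98.

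A few sulfur and redox genes outside these lists were singled out after their values had been seen. GR1, the cytosolic glutathione reductase, read 6.93, 6.83 and 6.86 against 6.39, 6.47 and 6.40 (-0.45 ± 0.10, adjusted p = 0.038). Its groups were tight and apart, but the call was lost in every fit without 1 array (0.060 to 0.14). MSRB6, a methionine sulfoxide reductase, read 3.83, 3.59 and 3.79 against 4.48, 4.72 and 4.22 (0.74 ± 0.15, adjusted p = 0.022). AT4G15700, a CC-type glutaredoxin, read 4.77, 4.56 and 5.28 against 5.77, 5.91 and 5.83 (0.97 ± 0.17, adjusted p = 0.011). MSRB6 lost its call without replicate 1 or 2 of either supply (0.051 to 0.11) and AT4G15700 without replicate 2 of deficient supply (0.058). AT2G36630, of a family named after sulfite exporters, went from 5.42, 5.64 and 6.14 to 4.59, 4.76 and 4.57 (-1.09 ± 0.19, adjusted p = 0.013) and lost its call without replicate 1 or 3 of deficient supply (0.053 and 0.062).

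**Figure D4:**
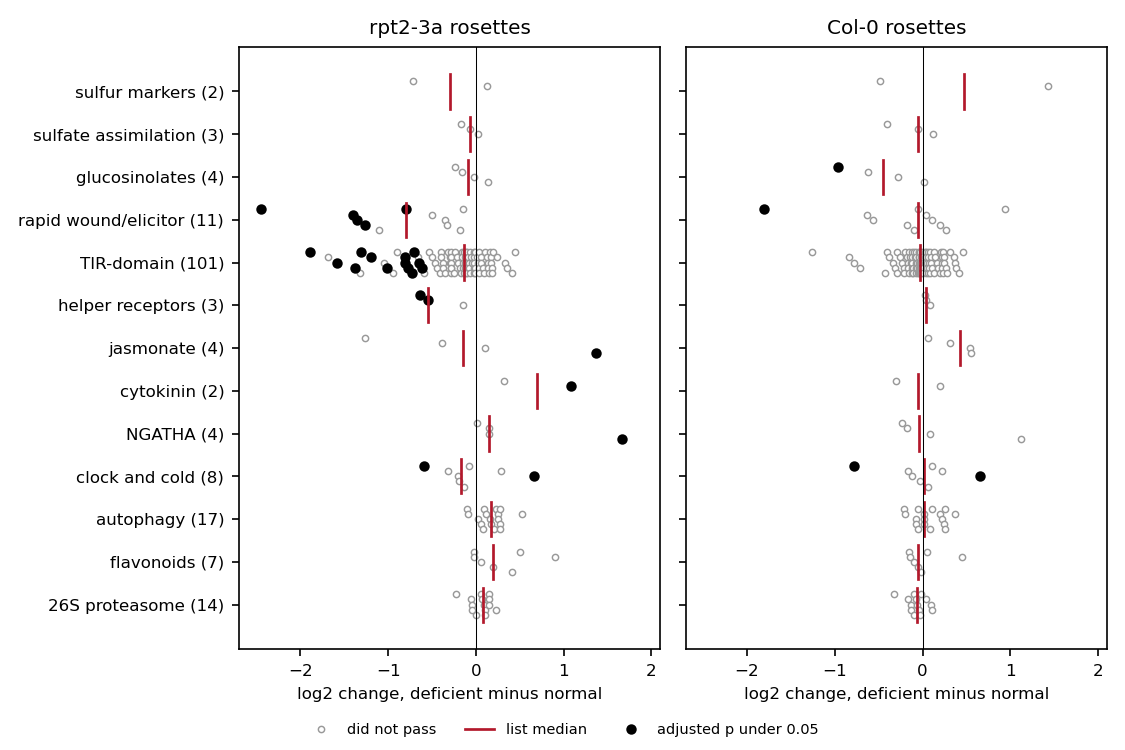
Log2 change (deficient minus normal sulfur, n = 3 arrays each) of the measured genes of 13 lists in rpt2-3a rosettes (left) and Col-0 rosettes (right), with genes at an adjusted p under 0.05 filled and list medians as red lines; numbers of measured genes are in brackets. The rapid wound and elicitor list has its median at -0.80 in the mutant, against -0.05 in Col-0, and the proteasome list lies near 0 in both.

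Among genes that rose, AT4G17470, which encodes an alpha/beta hydrolase, came first. It read 5.12, 4.50 and 5.45 at normal and 6.59, 7.71 and 6.94 at deficient supply (2.06 ± 0.32, adjusted p = 0.0066). NGA3, a B3 factor that shapes leaf and flower margins, read 2.13, 2.56 and 2.28 against 3.56, 4.33 and 4.08 (1.67 ± 0.22, adjusted p = 0.0035). It was the only one of 4 measured NGATHA genes that passed (0.868% of all features rose). NGA1 and NGA2 both stood at 0.15 and NGA4 at 0.02. FAMT, a methyltransferase of farnesoic acid, read 8.72, 7.67 and 8.12 against 9.18, 9.74 and 9.69 (1.37 ± 0.22, adjusted p = 0.0090).

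AT2G15830 read 6.23, 5.70 and 6.25 against 7.44, 7.81 and 7.66 (1.58 ± 0.18, adjusted p = 0.0022). AT3G56260 read 4.03, 4.08 and 4.16 against 5.31, 5.54 and 5.73 (1.44 ± 0.20, adjusted p = 0.0042). The functions of both are not given here. AT1G52720 (1.19 ± 0.16, adjusted p = 0.0034), the remorin family gene AT1G30320 (1.15 ± 0.14, adjusted p = 0.0029) and the aspartyl protease gene AT5G19100 (1.1 ± 0.16, adjusted p = 0.0063) also rose at least 2-fold. AT1G30320 had the tightest groups of the 3, with 5.35, 5.32 and 5.39 against 6.37, 6.52 and 6.62. These 8 genes passed whichever array was left out, FAMT with an adjusted p of up to 0.0496.

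ARR15, a type-A response regulator that damps cytokinin signalling, read 3.87, 3.51 and 4.27 against 4.98, 4.89 and 5.04 (1.09 ± 0.20, adjusted p = 0.014). The other measured gene of the cytokinin list of 17, ARR16, stood at 0.32 (adjusted p = 0.57). TBL26, of a family that acetylates wall polysaccharides, read 5.62, 5.19 and 5.79 against 6.46, 6.68 and 6.54 (1.03 ± 0.22, adjusted p = 0.035). AT4G13500 (1.03 ± 0.22, adjusted p = 0.036) and the hydrolase gene AT2G39420 (0.99 ± 0.20, adjusted p = 0.028) were close behind. These 4 were called only in 1 of the 6 fits without 1 array, that without replicate 3 of normal supply. The other fits gave 0.053 to 0.15. AT5G52882, an AAA-type ATPase gene (1.05 ± 0.15, adjusted p = 0.0045), and AT3G51140 (1.02 ± 0.15, adjusted p = 0.0046) passed in all 6. AT3G51140 read 5.86, 5.90 and 5.89 against 6.94, 6.95 and 6.81, and its 2 other features both stood at 0.97.

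AT1G66100, which encodes a thionin, a small cysteine-rich defence peptide, read 7.95, 7.67 and 8.18 against 8.80, 9.29 and 8.70 (1.00 ± 0.18, adjusted p = 0.013). It lost its call without replicate 2 of either supply (0.065 and 0.063). Its chromosomal neighbour is the TIR gene AT1G66090, which fell. The defensin-like genes AT2G43530 (0.75 ± 0.15, adjusted p = 0.022) and AT2G43550 (0.66 ± 0.10, adjusted p = 0.0080), picked out after their values were seen, rose as well, the first losing its call without replicate 2 of normal or any 1 array of deficient supply (0.063 to 0.089). AT2G43550 read 7.32, 7.28 and 7.32 against 8.01, 7.98 and 7.91.

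Hormone and transport genes singled out in the same way gave further calls. AT5G05600, a jasmonate oxidase that inactivates the hormone, read 5.17, 4.99 and 5.33 against 5.99, 6.18 and 6.08 (0.92 ± 0.14, adjusted p = 0.0056). Within the jasmonate list of 17, 4 were measured and FAMT alone passed, as higher (0.868% of all features). PDF1.2A, a plant defensin, stood at -1.26 ± 1.04 (adjusted p = 0.66) with arrays from 6.97 to 9.12 at normal and from 6.46 to 7.55 at deficient supply. THI2.1 (-0.39) and JMT (0.10) did not pass either. SWEET16, a vacuolar sugar transporter, went from 5.76, 5.62 and 5.96 to 6.47, 6.51 and 6.46 (0.70 ± 0.11, adjusted p = 0.0090). NAXT1, a nitrate efflux transporter, fell from 5.91, 5.89 and 5.67 to 5.00, 5.06 and 5.14 (-0.76 ± 0.10, adjusted p = 0.0036). All 3 that passed here, AT5G05600, SWEET16 and NAXT1, held without any 1 array.

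Of 8 measured clock and cold genes (21 listed), COR27 rose and TZP fell (0.868% and 0.686% of all features rose and fell). COR27, a cold-induced protein of the clock, read 6.97, 6.88 and 7.28 against 7.68, 7.75 and 7.70 (0.67 ± 0.11, adjusted p = 0.0094), and in Col-0 it rose by 0.65 ± 0.11 (adjusted p = 0.049). TZP, a zinc finger regulator of growth in light, read 4.73, 4.81 and 4.79 against 4.25, 4.20 and 4.09 (-0.60 ± 0.12, adjusted p = 0.019), and in Col-0 it fell by 0.78 ± 0.12 (adjusted p = 0.021). The call of TZP in rpt2-3a was lost in every fit without 1 array except that without replicate 3 of normal supply (0.052 to 0.10). COR28 (0.28), COR15A (-0.20) and KIN1 (-0.31) did not pass.

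Genes of protein and cell recycling moved little. Of 41 autophagy genes 17 were measured, and 15 lay above 0 with a median change of 0.17, but none passed. ATG8E, a ubiquitin-like protein that marks autophagosomes, read 5.03, 4.61 and 5.13 against 5.48, 5.38 and 5.48 (0.52 ± 0.15, adjusted p = 0.13). ATG8I and ATG101 both stood at 0.28. Of 52 subunits of the 26S proteasome, a list also written after the values had been seen, 14 were measured, and none passed. Their median change was 0.08 in a range from -0.23 for RPT1B, an ATPase like RPT2, to 0.23 for RPN7, a lid subunit. RPN7 read 7.88, 7.40 and 8.28 against 8.20, 8.10 and 7.94, so the normal arrays spanned the deficient ones.

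Of 16 flavonoid and anthocyanin genes 7 were measured and none passed. 3AT1, an anthocyanin acyltransferase, came nearest, from 7.06, 6.24 and 7.26 to 7.74, 8.03 and 7.48 (0.90 ± 0.24, adjusted p = 0.098), followed by 5MAT (0.41, adjusted p = 0.15) and DFR (0.50, adjusted p = 0.34). No senescence gene of 10 was measured. Families were found by gene symbol or synonym only, so members named by locus alone, such as the EF-hand gene AT4G27280, are not counted in them, and 0.686% of all features fell and 0.868% rose. In these families, 1 of 26 cytochrome P450 features (CYP71B32, -0.62) and 1 of 53 UDP-glycosyltransferase features (UGT73C6, -0.63) passed as lower, both losing the call in at least 4 of the 6 fits without 1 array (up to 0.15), as did 1 of 7 WRKY (WRKY22) and 1 of 10 ubiquitin ligase features (PUB23). ARR15 was the only one of 8 response regulator features that passed. By symbol, none of 35 expansin and xyloglucan endotransglucosylase features, 13 glutathione transferase features, 9 auxin-responsive features, 7 calmodulin-like features or 5 SAUR features passed.

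Adjacent genes did not always move together. Among the called genes, 6 pairs were next to each other in the RefSeq gene order, 3 moving the same way and 3 in opposite ways. The same-way pairs were AT5G41740 with AT5G41750, NRG1.1 with NRG1.2, and AT1G30250 (0.50) with AT1G30260 (0.48). In the opposite pairs RAC1 fell beside AT1G31550 (0.69), AT1G66090 fell beside AT1G66100, and AT3G59080 (-0.82) fell beside AT3G59070 (0.61).

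Whether the response of rpt2-3a differs from that of Col-0 was tested as the difference of the 2 responses over the same 12 arrays. No feature passed (0.0%), the smallest adjusted p was 0.13, and 2650 features had an unadjusted p under 0.05. This count depends on the fit: 69 features (18 higher and 51 lower) passed with all 24 arrays in 1 fit, which is the fit used for the roots below, and 19 passed with a variance trend and robust fit. Col-0 rosettes alone gave 37 features (0.129%), 22 higher (0.077%) and 15 lower (0.0525%). Of the 196 features that fell in rpt2-3a, 5 also passed as lower in Col-0, and of the 248 that rose, 9 also passed as higher. Over the features called in rpt2-3a the median change in Col-0 was -0.14 for the lower and 0.16 for the higher ones. In the 12-array fit, being called in one genotype and not in the other is therefore not shown to be a difference between them.

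AT5G52882 was the clearest case of equal size, 1.05 ± 0.15 in rpt2-3a and 1.01 ± 0.15 in Col-0 (adjusted p = 0.022), with a difference of 0.04 ± 0.21. The other called genes that passed in both were ORA47 (-1.27 and -1.81), TZP, COR27, AT3G56200 (0.60 and 1.06), AT5G52410 (0.72 and 0.77), AT5G54300 (0.81 and 0.89) and AT4G38810 (0.84 and 0.58). ORA47 started from 7.37 ± 0.15 in Col-0 and 5.34 ± 0.54 in rpt2-3a and ended at 5.56 ± 0.47 and 4.07 ± 0.21 (mean ± SD, n = 3).

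Levels in the 4 groups of the named genes took several forms, given here as levels without a test of genotype. AT4G17470 stood at 5.02 ± 0.48 in normally supplied rpt2-3a and at 7.08 ± 0.57 under deficiency, while Col-0 stood at 6.89 ± 0.20 and 7.04 ± 0.56 (difference of responses 1.91 ± 0.45, adjusted p = 0.23). AT2G43590 stood at 6.76 ± 0.73 and 4.89 ± 0.33 in rpt2-3a and at 4.79 ± 1.02 and 4.90 ± 0.21 in Col-0 (-1.98 ± 0.60, adjusted p = 0.33). AT1G66100 stood at 7.93 ± 0.26 and 8.93 ± 0.32 in rpt2-3a and at 9.50 ± 0.11 and 9.56 ± 0.27 in Col-0 (0.94 ± 0.25, adjusted p = 0.26). In these genes the deficient means of the mutant lay nearer to Col-0 than its normal means did.

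In the TIR genes AT1G72900 and AT5G41750 the mutant lay on both sides of Col-0. AT1G72900 stood at 7.20 ± 0.31 and 5.62 ± 0.30 in rpt2-3a and at 6.27 ± 0.35 and 6.21 ± 0.46 in Col-0 (-1.53 ± 0.34, adjusted p = 0.22). AT5G41750 stood at 6.36 ± 0.39 and 5.05 ± 0.12 against 5.60 ± 0.25 and 5.68 ± 0.24 (-1.39 ± 0.27, adjusted p = 0.16). ARR15 did the same in the other direction, at 3.88 ± 0.38 and 4.97 ± 0.08 against 4.6 ± 0.20 and 4.29 ± 0.36 (1.39 ± 0.28, adjusted p = 0.17). The response and the genotype contrast at normal supply share the 3 normally supplied rpt2-3a arrays, so a chance shift of these arrays enters both.

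**Figure D5:**
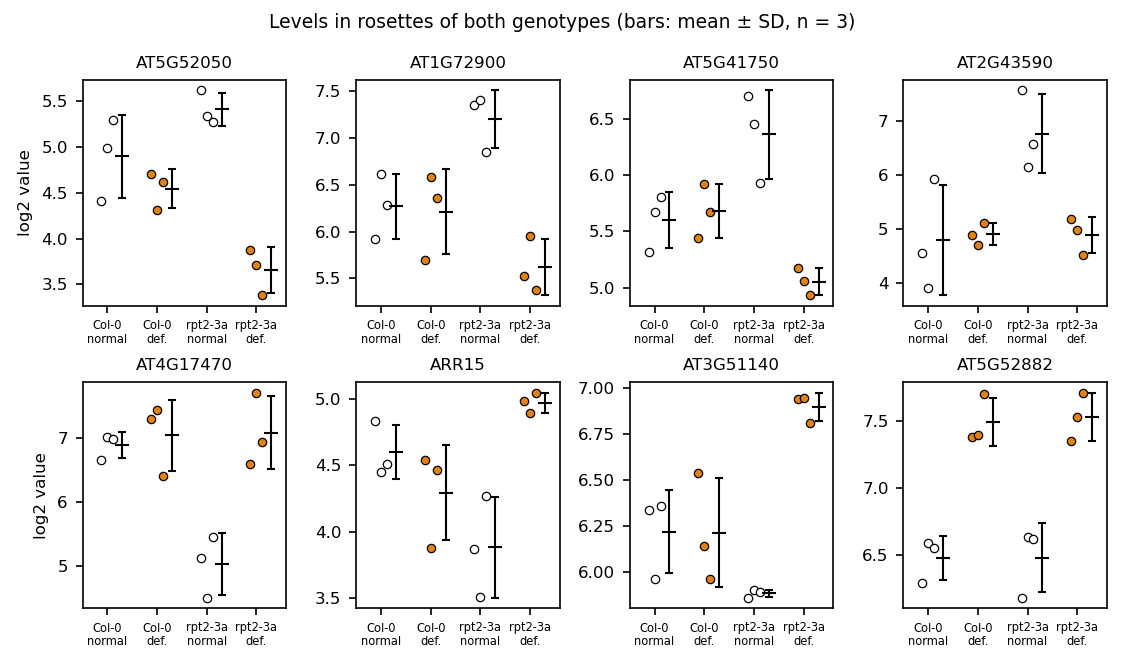
Log2 values of 8 genes in the 4 groups of rosettes, with 1 point per array (open for normal, filled for deficient sulfur) and bars for mean ± SD (n = 3). AT5G52882 moves alike in both genotypes, and AT4G17470 and AT2G43590 have similar means in both genotypes under deficiency; none of the 8 differences of responses passed.

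The 5 genes with the smallest p for the difference from Col-0 all had an adjusted p of 0.13 and did not pass. AT3G07195 fell by 0.90 ± 0.14 in rpt2-3a (adjusted p = 0.0085) and stood at 0.29 ± 0.14 in Col-0. AT5G41180, a receptor-like kinase gene, went from 5.51, 5.77 and 5.48 to 5.08, 4.94 and 4.99 in rpt2-3a (-0.58 ± 0.11, adjusted p = 0.017) and stood at 0.32 in Col-0. It lost its call without replicate 2 of normal or replicate 2 or 3 of deficient supply (0.074 to 0.091). CYP71B32 stood at -0.62 and AT5G44565 at -0.43 in the mutant, against 0.46 and 0.68 in Col-0. AT4G30400, a RING protein gene, stood at 0.17 in the mutant, while in Col-0 it fell by 0.82 ± 0.11 (adjusted p = 0.015).

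The rosette response was set against that of rpt2-3a roots over all 24 arrays. In the difference of the 2 responses 114 features passed (0.399%), 53 higher and 61 lower in rosettes than in roots. Of these, 67 were also called in rosettes, as were 1.55% of all features. Both tests use the same rosette arrays of rpt2-3a, so part of this overlap is built in. Features that fell in rosettes had a median change of -0.22 in roots, and those that rose 0.05. ERF022 stood at 1.98 and 2.02 in roots at normal and deficient supply, near the bottom of the range (difference of responses -2.48, adjusted p = 0.012). AT4G17470 was likewise low in roots, at 2.59 and 2.62 (2.03, adjusted p = 0.017). AT2G43590, at 7.59 and 8.12 in roots, did not fall there (-2.40, adjusted p = 0.026).

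The 5 genes with the smallest p for this difference were AT5G10040, AT4G30380, AT5G52050, AT3G23170 and NAXT1. AT5G52050 stood at 4.69 and 4.56 in roots (difference -1.62, adjusted p = 0.0059), and NAXT1, far more abundant in roots, at 8.95 and 9.02 (-0.83, adjusted p = 0.0062). AT3G23170 fell in rosettes from 6.60, 6.78 and 6.65 to 5.56, 5.57 and 5.44 (-1.15 ± 0.19, adjusted p = 0.0091) and stood at 5.89 and 6.97 in roots (-2.23, adjusted p = 0.0059). AT5G10040 and AT4G30380 did not pass in rosettes (-0.18 and -0.23); in roots they rose by 1.62 (adjusted p = 1.1e-07) and 1.51 (adjusted p = 0.00032).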

How the data were processed

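Biotin-labelled total RNA was hybridised to Affymetrix arrays, 1 array a sample, per the labels. The authors deposited 1 table of values for 28583 features and 24 arrays with 2 decimals, which were read as log2 expression values from their range. Transcriptome Analysis Console is listed as a tool in the submitters' processing notes. The sources used here give neither its version nor the normalization, log base or build. Fold changes therefore assume base 2, and scale and centring stay unknown. Arrays of 1 group are biological replicates per the labels. The p-values set each difference against the spread between replicate arrays, pooled over all groups of a fit and moderated over features. No count depth exists for arrays, and their number limits the precision.

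Features were named through the platform annotation (16746 with 1 gene, 758 with several, 11079 with none), and 16697 of the first matched the RefSeq table of TAIR10.1, used for names and gene order only. Tests were run in R 4.3.3 with limma 3.58.1 (lmFit and eBayes) without further normalization or filter. The rosette fit had 4 group means over 12 arrays and 8 residual degrees of freedom, and the difference between organs used 24 arrays and 16. Tests were two-sided, p-values were adjusted over all features (Benjamini-Hochberg), and those under 0.05 passed. The code of the fit was run on simulated data with independent noise and no shifts between arrays, which does not test the calls made here. Same-numbered arrays of the 2 supplies did not deviate together (correlations of deviations 0.06, -0.07 and 0.05), so the numbers were not taken to pair them.

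Members and lists were chosen with earlier results of these data known, and 3 lists (TIR-domain, helper receptors, proteasome) after the values were seen. The naming rule took the 15 highest and 15 lowest changes among called 1-gene features with separate groups, all measured sulfur marker, assimilation and glucosinolate genes, up to 5 genes by smallest p of each other list or family, and the 5 smallest p of each difference of responses. Families were sought in gene symbols and synonyms, since the table holds no descriptions. A listed gene counts as measured where it has a feature with exactly 1 gene, and its brightest feature was taken. Alternatives were another centring or normalization, a filter on dim features, features with 1 gene only, variance trend, array weights, a replicate block, other sets of arrays and leaving out each array.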

Additional observations from a re-analysis of the deposited data

Results flagged for a closer look

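For 17 of 141 named features the response of rpt2-3a rosettes differed from that of rpt2-3a roots by the test of the difference itself (limma over 24 arrays, adjusted p under 0.05). The named features were chosen in part for large rosette changes or for this difference, so their share is not comparable with the 114 features (0.399%) that passed in all. The difference, rosette minus root, was negative for ERF022 (-2.48), AT2G43590 (-2.40), AT3G23170 (-2.23), AT5G10040 (-1.80), AT4G30380 (-1.74), AT5G52050 (-1.62), ZAT7 (-1.34), AT3G07195 (-1.04) and NAXT1 (-0.83). It was positive for AT4G17470 (2.03), NGA3 (1.52), AT3G56260 (1.41), TBL26 (1.16), AT1G66100 (1.15), AT1G30320 (1.13), AT3G51140 (1.04) and AT5G52882 (1.00). AT5G10040 and AT4G30380 did not pass in rosettes. ZAT7 (1.99 and 1.98 at the 2 supplies), AT1G66100 (1.96 and 1.81) and AT3G56260 (2.22 and 2.24) read near the bottom of the range in roots.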

How the results depend on the processing

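With 3 arrays per group, single arrays moved the counts. The count of 444 for the rpt2-3a rosette response became 711 with features of a mean of at least 4 only and 145 with 1-gene features only. Fewer features were tested in both settings, here and below, and the main fit called 182 features with 1 gene. The count was 724 with a variance trend and robust fit and 778 with all 24 arrays. Without 1 array it ran from 179 to 611. The split of 248 higher and 196 lower became 244 and 215 after centring and 256 and 216 after quantile normalization. It turned with the replicate block (459 called, 224 and 235) and with the 6 arrays alone (337 called, 150 and 187). The cause of these moves was not tested. For Col-0 the count of 37 became 99, 7, 130 and 185 under the first 4 settings, 70 with the replicate block and 5 with its 6 arrays alone, and 5 to 39 without 1 array. The difference between genotypes gave 0 in the main fit, 1 with the mean filter, 19 with trend and robust fit and 69 with all 24 arrays, and 0 without any 1 array and with the replicate block. The difference between organs gave 114, 41 with 1-gene features, 211 with trend and robust fit, 111 with the replicate block and 43 to 254 without 1 array. The TIR-domain and rapid-response counts ran from 6 to 14 and from 1 to 6 without 1 array; these 2 counts, and their values in the other settings (12 to 18 and 4 to 6), were chosen after seeing the data. The replicate numbers are not taken to pair the arrays: correlations of same-numbered arrays were not all over 0.1 in rpt2-3a rosettes, in Col-0 rosettes (0.24, 0.03 and 0.14) or in rpt2-3a roots (0.15, 0.09 and -0.04). Over 133 named-gene changes and these settings except the 24-array fit, calls were lost 110 times and gained 16 times; the filter on dim features covered 84 of the changes. No called change reversed, which is no sign of stability where the groups do not overlap.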
